A study of Mus musculus with 20 samples.

Results

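The comparison set 4 samples of mouse embryonic fibroblasts exposed to actinonin for 72 h against 4 exposed for 24 h, out of 20 samples in the series. The members are the samples titled as 72 h and as 24 h, and the results are described across all genes on the array. Mouse embryonic fibroblasts are connective tissue cells cultured from embryos, here of a Balb/c background. Both groups received actinonin at 150 µM in ethanol and differed by the length of the exposure alone, as far as the labels say. All groups, the ethanol-carrier controls included, grew in medium with serum and uridine and were harvested near confluence. Each sample pooled the RNA of 4 culture plates, and the labels call the 4 samples of a group independent. The cells' genotype beyond the strain and the way the cultures were started are not stated in the labels, so p-values here reflect how far these samples vary, which may be technical. There was no carrier control of matched age: time in culture and time in actinonin cannot be told apart in this comparison.

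Actinonin is a hydroxamate that binds the metal ion of peptide deformylase. This enzyme strips the formyl group off the first methionine of proteins that bacteria and mitochondria make. Mitochondria start translation with formyl-methionine, and their ribosomes make a small set of respiratory chain subunits, so that the drug strains mitochondrial translation and, in time, the respiratory chain. Uridine supports cells whose respiratory chain no longer supplies the pyrimidine pathway. Fibroblasts in this setting may engage the integrated stress response, change their cell cycle and remodel the matrix they secrete. Actinonin also inhibits other metal-dependent peptidases, some of which act outside the cell.

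The 8 samples shared 4 two-colour arrays of 1 slide. Each array carried 1 sample of 72 h and 1 of 24 h. On arrays 1 and 2 the 72 h sample carried the dye Cy5, and on arrays 3 and 4 it carried Cy3. The ratio of the channels within an array thus measured the change from 24 h to 72 h directly, and the dye effect was fitted as a term of its own. Of all spots that measure genes or transcripts, 54.4% to 58.7% were well above background in each of the 8 samples, and no such spot was saturated. Levels of samples of the same time correlated at 0.997 to 0.999 over genes. The log2 ratios of arrays with the same dye orientation correlated at 0.73 to 0.74 over all genes, against 0.12 to 0.24 between arrays of opposite orientation. The dye term passed the threshold for 2910 genes, with a median size of 0.22 (log2) among them. A mean over arrays of only 1 orientation would hold that dye effect, which cancels over the 4 arrays.

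Tests of cell identity came from markers of 8 cell types. Among the fibroblast markers, 10 of 11 were well above background in all 8 samples. Their summed normalized intensity was 761190 to 928283 at 24 h and 808555 to 963966 at 72 h. The epithelial markers Epcam, Cdh1, Krt8 and Krt18, the endothelial Cdh5, Tek and Tie1, the leukocyte Ptprc, Cd52, Fcgr3 and Laptm5, the muscle Myod1, Myog, Ckm and Mylpf and the adipocyte Adipoq, Plin1, Cidec and Lep were not well above background in any of the 8 samples. A neural marker, Nefl, was not well above background either, whereas 4 of 6 neural markers were above it in all 8. Other members of these lists were also above it in all 8 samples: 2 of 8 epithelial, 3 of 7 endothelial, 3 of 9 leukocyte and 1 of 6 adipocyte markers. For skeletal muscle the count was 0 of 6, and for cartilage and bone 4 of 5. The markers thus do not show that these other types were absent. In bulk RNA, fewer cells of a type and less RNA per cell cannot be told apart.

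Change from 24 h to 72 h was broad and mostly small. Among 22850 genes and transcripts tested, 5847 were called at an adjusted p under 0.05, or 25.6%. The calls split into 3071 higher at 72 h (13.4% of those tested) and 2776 lower (12.1%). The median size of a called change was 0.22 on the log2 scale, and 13 genes rose and 8 fell by at least 2-fold. At 1.5-fold or more, 115 rose and 75 fell. Of the 13881 tested genes with a symbol, 2030 were higher (14.6%) and 2123 lower (15.3%), and these shares are the background for the gene lists. The levels of the 4 samples of 72 h and the 4 of 24 h did not overlap for 4669 of all tested (20.4%) and for 3875 of those called.

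Precision set what could be seen. The median standard error was 0.04 (log2), the smallest called change was 0.13, and the share called was 11.7% among the 5713 dimmest genes against 28.1% to 33.4% in the 3 brighter sets of like size. The added offset compresses ratios of dim genes, so that their changes are understated. Called genes had 2319 further probes, and 83.3% of these moved in the same direction. Leaving out array 1, 2 or 3 lowered the number of calls to 2659, 3418 or 3672. Where arrays were centred on their median in place of the loess curve, which follows intensity, 2651 genes were called, and 26.7% of those were higher at 72 h against 52.5% in the main analysis. The fit under that centring also used a variance shared by all genes. Its adjusted p for B4galnt2 was 7.91e-58, against 5.65e-05 in the main fit. Counts with median centring, here and below, thus differ from the main ones in the variance as well as the centring. That centring moved bright genes down: the median change of 77 cytosolic ribosomal protein genes went from -0.01 to -0.15. Small rises of bright genes are therefore relative to genes of like brightness.

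**Figure D1:**
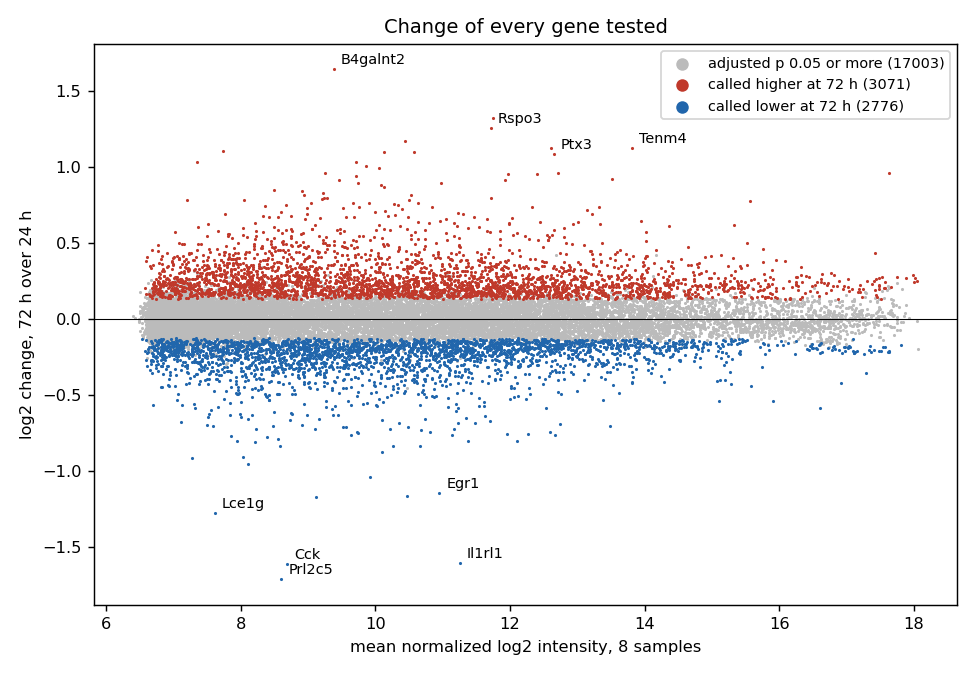
Change of each of the 22850 genes and transcripts tested (y axis, log2 of 72 h over 24 h) against its mean normalized log2 intensity over the 8 samples (x axis). Red points are the 3071 called higher at 72 h, blue points the 2776 called lower and grey points the rest; B4galnt2 stands highest at 1.64 and Prl2c5 lowest at -1.72 among the genes labelled.

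The largest rise among genes named by rule was that of B4galnt2, a glycosyltransferase that adds N-acetylgalactosamine to make the Sda blood group antigen. Its normalized log2 level was 8.54, 8.60, 8.54 and 8.54 in the 4 samples of 24 h and 10.09, 10.16, 10.34 and 10.20 in those of 72 h. The groups were far apart relative to their spread, and the gene was 3.12-fold higher at 72 h (log2 change 1.64, SE 0.05, adjusted p = 5.65e-05). In the carrier controls it lay at 6.78 to 6.93 and at 48 h at 9.11 to 9.44, so that 72 h was the highest of all times measured.

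Rspo3, a secreted amplifier of Wnt signalling, had levels of 11.20, 10.94, 11.02 and 11.18 at 24 h and 12.67, 12.32, 12.38 and 11.99 at 72 h. It rose 2.39-fold (log2 1.26, SE 0.08, adjusted p = 0.000487), with every 72 h sample above every 24 h sample. Tenm4, a teneurin of the cell surface, rose by 1.12 and Ptx3, a soluble pattern recognition protein that also organises hyaluronan, by 1.08. For Tenm4 a further probe gave 0.11 with an adjusted p of 0.228, so its rise rests on 1 probe. Ptx3 was even across samples, with 12.14, 12.17, 12.01 and 12.11 at 24 h against 13.12, 13.22, 13.22 and 13.19 at 72 h. P2rx3, an ATP-gated ion channel best known from sensory neurons, rose by 1.10, and its other probe by 0.96. Igfbp4, which binds insulin-like growth factors, rose by 1.01, and Notch3, a receptor, by 0.90. Adamts1, a secreted metalloproteinase that cuts proteoglycans, rose by 0.96, and Enpp2, which makes lysophosphatidic acid, by 0.94. Others on the list of 20 were H2bc4, Zfr2, Ptchd1, H1f2, C1s1, C1s2, Kif21b, Islr, Wscd2 and Limch1, at 0.89 to 1.10.

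The largest fall named by rule was that of Prl2c5, of the proliferin branch of the prolactin family. It had levels of 9.44, 9.47, 9.50 and 9.42 at 24 h and 7.58, 7.76, 7.81 and 7.81 at 72 h. It was 3.28-fold lower at 72 h (log2 change -1.72, SE 0.05, adjusted p = 5.65e-05), and its other probe gave -1.72 as well. The proliferin genes are near-identical copies, so the probes may not tell them apart. Cck, the peptide hormone cholecystokinin, went from 9.60, 9.35, 9.62 and 9.43 at 24 h to 7.82, 7.77, 7.86 and 8.08 at 72 h. It was 3.07-fold lower (log2 -1.62, SE 0.08, adjusted p = 0.000279). Il1rl1, the receptor for interleukin-33, was at 11.98, 11.96, 12.15 and 12.13 at 24 h and at 10.52, 10.43, 10.42 and 10.42 at 72 h. That is 3.05-fold lower (log2 -1.61, SE 0.04, adjusted p = 4.14e-05), and its 2 other probes fell by 1.39 and by 0.57. The 3 genes kept all samples of 72 h below all samples of 24 h.

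Lower down the falls were Lce1g (-1.28) and Lce1i (-0.92), late cornified envelope genes whose family members resemble each other closely. Adcyap1r1, the receptor of the neuropeptide PACAP, fell by 1.17. Ngef, an exchange factor for small GTPases, fell by 1.04, and Ret, a receptor tyrosine kinase, by 0.91. Dkk2, a secreted modulator of Wnt signalling, fell by 0.84 and Hhip, which binds hedgehog ligands, by 0.81. Rgs17 and Rgs4, which shorten signalling by G proteins, fell by 0.84 and 0.79 (0.49 on the other probe of Rgs4), and the chemokine Ccl7 by 0.81. Rasgrf1, an exchange factor for Ras, was at -1.17 on the probe chosen for its brightness, but its other probe gave 0.24 with an adjusted p of 0.0409, so that the probes disagreed. The others were Egr1, Acsbg1, Tnnt2, 3300005D01Rik, Pik3r5 and Slc5a3.

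**Figure D2:**
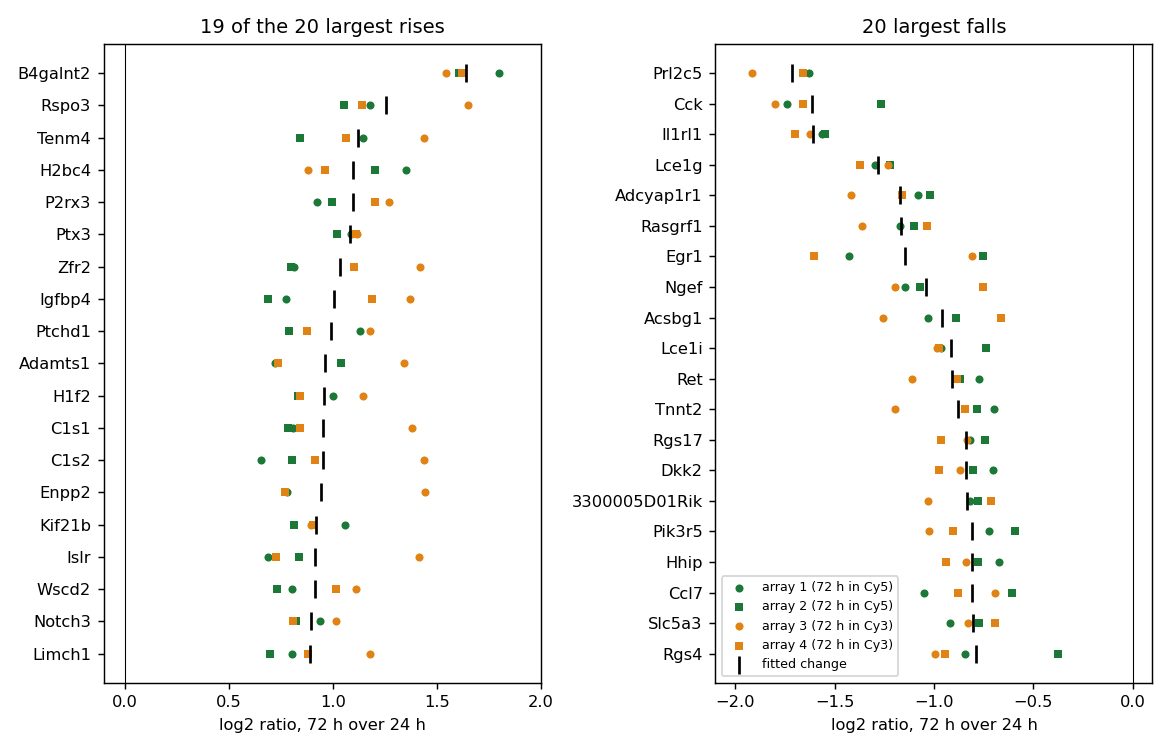
Log2 ratio of 72 h over 24 h on each of the 4 arrays (points) and the fitted change (black bar) for 19 of the 20 largest rises (left) and the 20 largest falls (right) chosen by rule. Green marks arrays with 72 h in Cy5 and orange those with 72 h in Cy3; array 3 gave the largest ratio for 17 of the 20 rises and 12 of the 20 falls.

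The levels of the 4 and 4 samples did not overlap for any of these 40 genes, against 20.4% of all tested, but 1 sign on all 4 arrays was part of their rule. Array 3 gave the largest ratio for 17 of the 20 rises. Without array 3 all 40 were still called in the same direction. Islr, a secreted matrix-associated protein, shows the pattern, with log2 ratios of 0.69, 0.84, 1.41 and 0.73 on arrays 1 to 4. Egr1 had the widest spread of the falls, as given with the immediate early genes.

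Levels at the other times were read as a description, since controls and 6 h samples lay on both slides. In addition, an array holding a control and a 48 h sample had 66.4% and 70.5% of spots well above background. The 8 samples compared had 54.4% to 58.7%. Its bearing on the control and 48 h levels was not tested. At 72 h, 16 of the 20 rises had all 4 levels above all 4 controls, and at 24 h 10 did. All 20 falls lay below all 4 controls at 72 h, and 15 did so at 24 h. The same shares over all tested genes were not computed. These genes were also chosen for their change from 24 h to 72 h, which favours 72 h levels beyond the controls. The counts are thus no result about distance from the controls. The mean at 48 h lay between 24 h and 72 h for 13 of the 20 falls. For the rises it lay between for 9 and below the 24 h mean for the other 11. Rspo3 was such a gene, at 10.62 to 10.75 at 48 h.

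**Figure D3:**
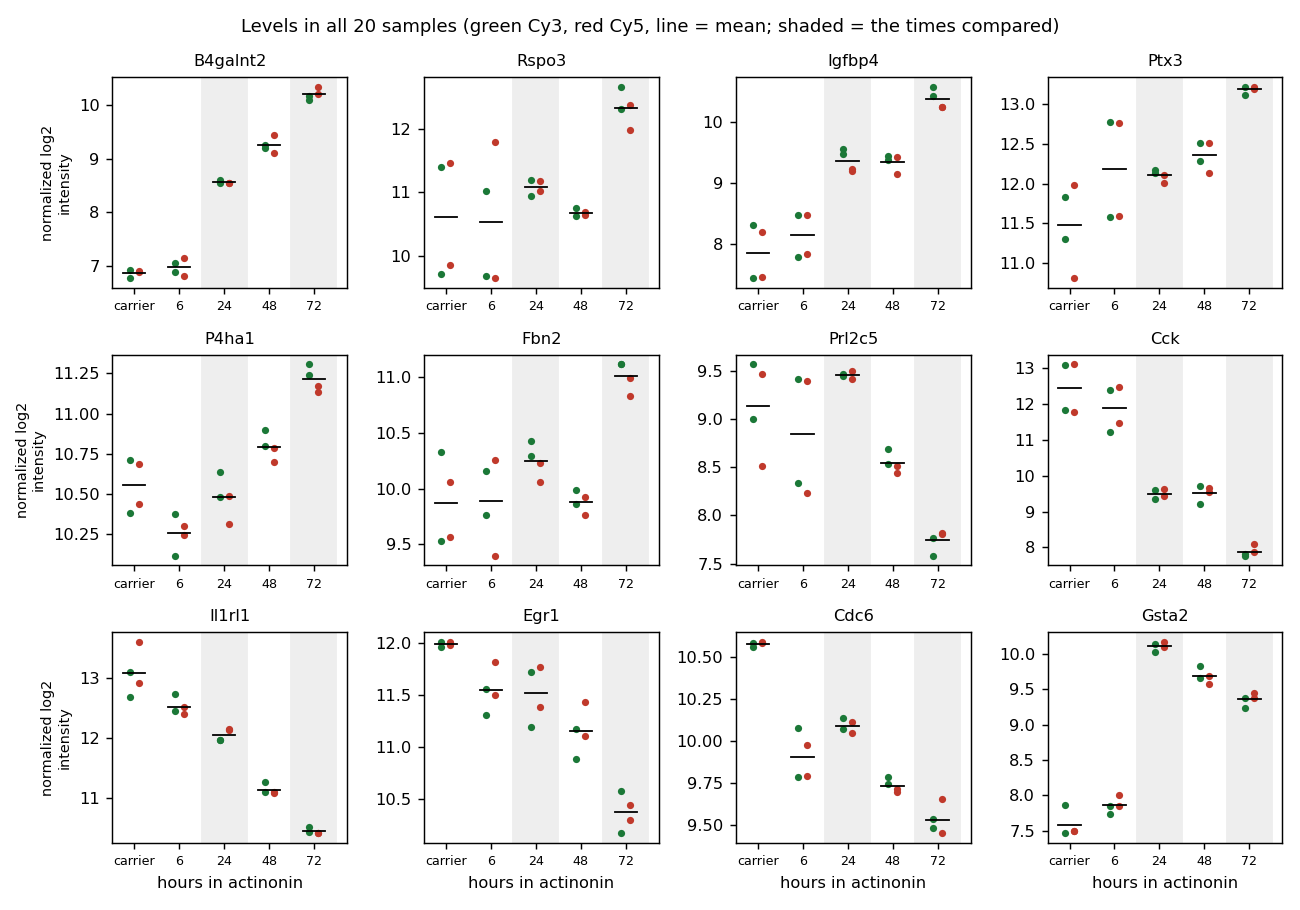
Normalized log2 intensity of 12 genes (y axis) in each of the 20 samples against hours in actinonin (x axis), green for Cy3 and red for Cy5, with the mean of each group as a line and 24 h and 72 h shaded. Il1rl1 was lower at each later time, Rspo3 was lower at 48 h than at 24 h before its rise to 72 h, and control and 6 h samples spread widely for several genes.

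Genes of glycolysis and the response to low oxygen rose together. Hypoxia-inducible factors drive most of these genes, which cover glucose breakdown, lactate export and the hydroxylation of collagen. Of 26 members tested, 19 were higher and 0 lower, and the median change was 0.28, against 14.6% higher and 15.3% lower of named genes and a median of 0.00 over all tested. All 26 had a change above 0. P4ha1, a collagen prolyl hydroxylase subunit, had levels of 10.64, 10.48, 10.31 and 10.49 at 24 h and 11.31, 11.24, 11.17 and 11.13 at 72 h. It rose 1.66-fold (log2 0.73, SE 0.05, adjusted p = 0.000587), and the groups did not overlap. Bnip3, a mitophagy receptor, rose by 0.54 (0.30 and 0.52 on its other probes), Pdk1, the kinase that restrains pyruvate dehydrogenase, by 0.49 and Vegfa, an angiogenic growth factor, by 0.43. Of the enzymes, Hk2 rose by 0.44, Pfkl by 0.40, Pgk1 by 0.38, Aldoa by 0.30 and Ldha by 0.29, while the glucose transporter Slc2a1 had a change of 0.01. With median centring 8 of the 26 were higher and the median was 0.15. Leaving out an array left 15 or 16 higher.

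The letters ACGTG, a form of the core that hypoxia-inducible factors bind, were searched on both strands of the promoter windows. Other forms of the core were not searched and are not marked. These windows reach from 250 bases before to 50 bases after a gene's start, from RefSeq on GRCm38.p6. All 26 members had a window and 20 held the letters (76.9%), against 21.8% of the 27025 genes with a window. Among those called, 14 of 19 held them. ACGTG also lies within the E-box of other factors, and a match is a description of the sequence. Members were listed as genes of this response, so a larger share than among all genes follows from the choice of list. Called members did not hold the letters more often than the whole list. Whether the matches bear on the change from 24 h to 72 h was not tested. The windows of P4ha1 (chr10:59323046-59323345, plus strand), Bnip3 (chr7:138909457-138909756, minus strand) and Pgk1 (chrX:106186850-106187149, plus strand) are shown because these are the called members with the smallest adjusted p that hold a match and have 1 window. The capitals mark the matches, read 5′ to 3′ along the gene's strand.
P4ha1: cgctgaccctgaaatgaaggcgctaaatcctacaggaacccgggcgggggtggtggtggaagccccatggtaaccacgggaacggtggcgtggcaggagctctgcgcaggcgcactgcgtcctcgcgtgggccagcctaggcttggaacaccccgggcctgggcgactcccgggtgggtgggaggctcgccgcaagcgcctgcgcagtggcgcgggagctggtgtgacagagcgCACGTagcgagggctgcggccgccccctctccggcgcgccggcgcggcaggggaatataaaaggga
Bnip3: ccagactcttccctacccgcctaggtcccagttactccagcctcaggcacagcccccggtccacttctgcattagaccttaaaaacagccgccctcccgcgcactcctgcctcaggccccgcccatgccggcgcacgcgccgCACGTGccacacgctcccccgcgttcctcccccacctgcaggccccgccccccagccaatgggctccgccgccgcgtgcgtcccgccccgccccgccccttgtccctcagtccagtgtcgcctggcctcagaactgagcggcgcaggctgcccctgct
Pgk1: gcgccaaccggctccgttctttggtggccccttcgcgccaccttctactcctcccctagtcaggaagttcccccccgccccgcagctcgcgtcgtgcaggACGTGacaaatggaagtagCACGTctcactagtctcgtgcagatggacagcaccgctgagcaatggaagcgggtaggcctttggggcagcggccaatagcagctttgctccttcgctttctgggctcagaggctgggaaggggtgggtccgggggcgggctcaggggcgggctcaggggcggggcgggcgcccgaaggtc

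Genes of the secreted matrix were higher at 72 h in several groups. Of 26 tested collagens and collagen-processing genes 13 were higher and 1 lower, with a median of 0.15. Loxl2, which cross-links collagen, had levels of 12.78, 12.78, 12.75 and 13.18 at 24 h and 13.31, 13.65, 13.61 and 13.69 at 72 h. It rose 1.62-fold (log2 0.69, SE 0.04, adjusted p = 0.000408), with all samples of 72 h above those of 24 h. Col11a1 rose by 0.62, Serpinh1, the collagen chaperone, by 0.50, Col3a1 by 0.47 and Col5a3 by 0.43. The major chains Col1a1 and Col1a2 had changes of 0.07 and 0.09 that did not pass the test. Bmp1, which trims procollagen, fell by 0.14. Median centring left 6 higher and 1 lower.

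Elastic fibre, proteoglycan and matricellular genes gave 14 higher and 4 lower of 25, with a median of 0.21. Fbn2, a fibrillin of microfibrils, was at 10.43, 10.29, 10.05 and 10.23 at 24 h and at 11.11, 11.11, 10.99 and 10.83 at 72 h, or 1.70-fold higher (log2 0.76, SE 0.05, adjusted p = 0.000407). The small proteoglycans Dcn, Fmod and Ogn rose by 0.74, 0.62 and 0.45, and Fbln1 by 0.57. Has2, which makes hyaluronan, fell by 0.57, and Thbs2, Spp1 and Postn fell by 0.42, 0.35 and 0.22. The group was thus mixed in direction. The 4 falls were of matricellular proteins and the hyaluronan synthase, but Sparc, also matricellular, had a change of 0.24 (0.19 on its other probe). Median centring left 7 higher and 4 lower.

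Metalloproteinases and their inhibitors were 10 higher and 3 lower of 18, with a median of 0.23. Adamts5, a proteoglycan-cutting protease, rose by 0.75, Mmp11 by 0.61, Mmp2 by 0.40 and Mmp19 by 0.35. The inhibitors split, with Timp3 at 0.36 and Timp2 at 0.24 higher and Timp1 at -0.25 lower. Adam8, a membrane protease, fell by 0.41. Median centring left 5 of these genes higher and 3 lower. Contractile and smooth muscle genes had 6 higher and 1 lower of 16. Actg2 rose by 0.42, Cnn1 by 0.40, Tagln by 0.29 and Acta2 by 0.25, and Srf, the transcription factor that drives such genes, fell by 0.18. Without array 2 the contractile genes had 2 higher and without array 4 they had 3. Median centring left 2 higher, with a median of 0.00 for the contractile list in place of 0.12.

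Chaperones of the endoplasmic reticulum fold secreted proteins. Of 24 tested, 10 were higher and 1 lower, with a median of 0.13. Ero1a, which supplies oxidising power for disulphide bonds, had 10.46, 10.44, 10.42 and 10.56 at 24 h and 10.90, 10.99, 11.07 and 11.04 at 72 h. It rose by 0.53 (SE 0.04, adjusted p = 0.000611), and the groups did not overlap. Hspa5, the main chaperone of the compartment, rose by 0.39, Edem1 by 0.38, Calr by 0.34 and Canx by 0.32. Without array 1 the list had 5 higher, and with median centring 2. Cytosolic heat shock genes had 1 higher and 6 lower of 15, with Hspa4l at -0.39, Hspa1a at -0.34 and Dnajb1 at -0.29, and it had 3 lower without array 2 or 3.

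**Figure D4:**
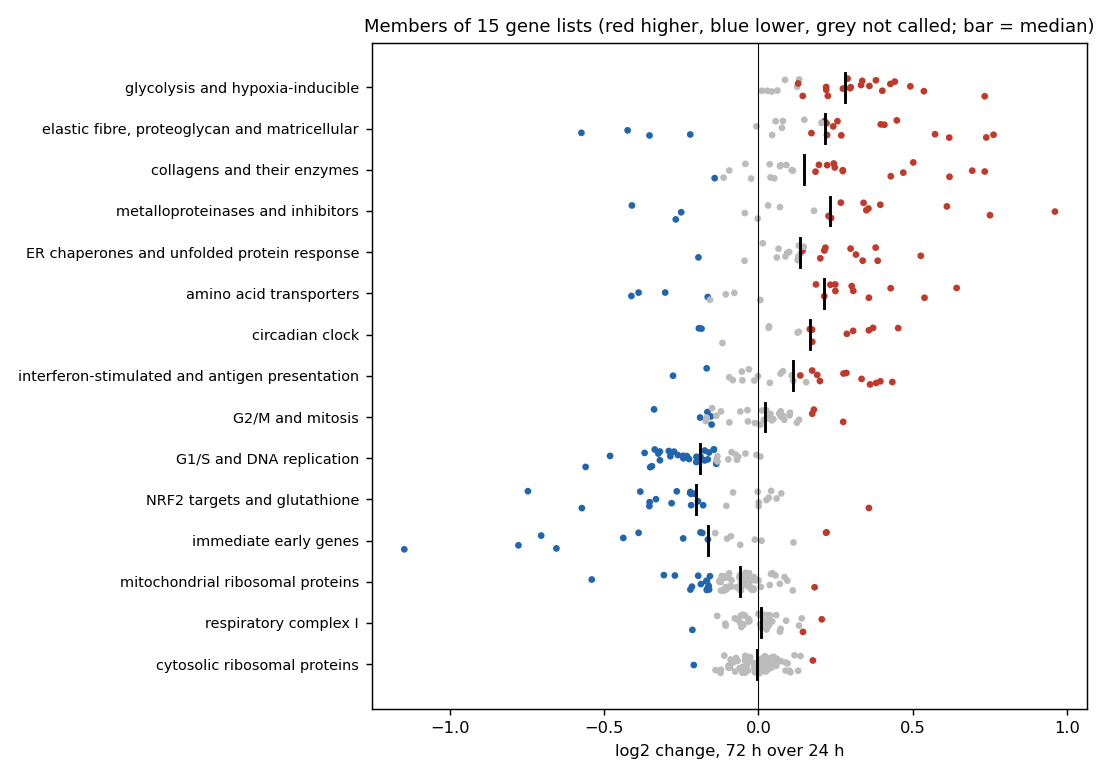
Log2 change of 72 h over 24 h (x axis) of each tested member of 15 gene lists (rows), with red for members called higher, blue for called lower, grey for the rest and a black bar at the median of the list. The bars of the glycolysis list (0.28) and the G1/S list (-0.19) lie on opposite sides of 0, while that of cytosolic ribosomal proteins lies at -0.01.

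Most genes of DNA replication and the G1/S step were lower at 72 h. E2F transcription factors switch on the first set as cells commit to S phase. Of 41 G1/S genes tested, 30 were lower and 0 higher, with a median of -0.19, and 40 of 41 had a change below 0. Cdc6, which loads the replicative helicase, had levels of 10.14, 10.07, 10.11 and 10.05 at 24 h and 9.53, 9.48, 9.45 and 9.65 at 72 h. It was 1.47-fold lower (log2 -0.56, SE 0.05, adjusted p = 0.00122), and its groups did not overlap. E2f2 fell by 0.48, Mcm10 by 0.37, Gins1 by 0.34, Orc1 by 0.34 and Cdc45 by 0.35. The polymerase subunits Pola2 and Pole2 fell by 0.32 each, Ccne1 by 0.24 and Pcna by 0.23. The other probe of Ccne1 gave -0.09 with an adjusted p of 0.261. Median centring kept the count at 30 lower with 0 higher, but it moved the median to -0.31. That centring lowers bright genes in general, so the kept count could not test these falls. Without array 1, 2 or 3 the count fell to 16, 19 or 17, with medians of -0.21 to -0.16 over the arrays left out in turn.

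Of 36 mitotic genes, 3 were higher and 5 lower, with a median of 0.02. Hmmr, a spindle protein, rose by 0.27, and Mybl2, Kif18b and Kif2c fell by 0.34, 0.19 and 0.17. Cdk1 and Plk1 had changes of -0.09 and 0.03 that did not pass the test. Ccnb1 rose by 0.17 on its brightest probe, but its other probes gave -0.18 and -0.19. The mitotic list had 1 lower without array 1, 2 or 3. A difference between the G1/S and mitotic lists was not tested.

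**Figure D5:**
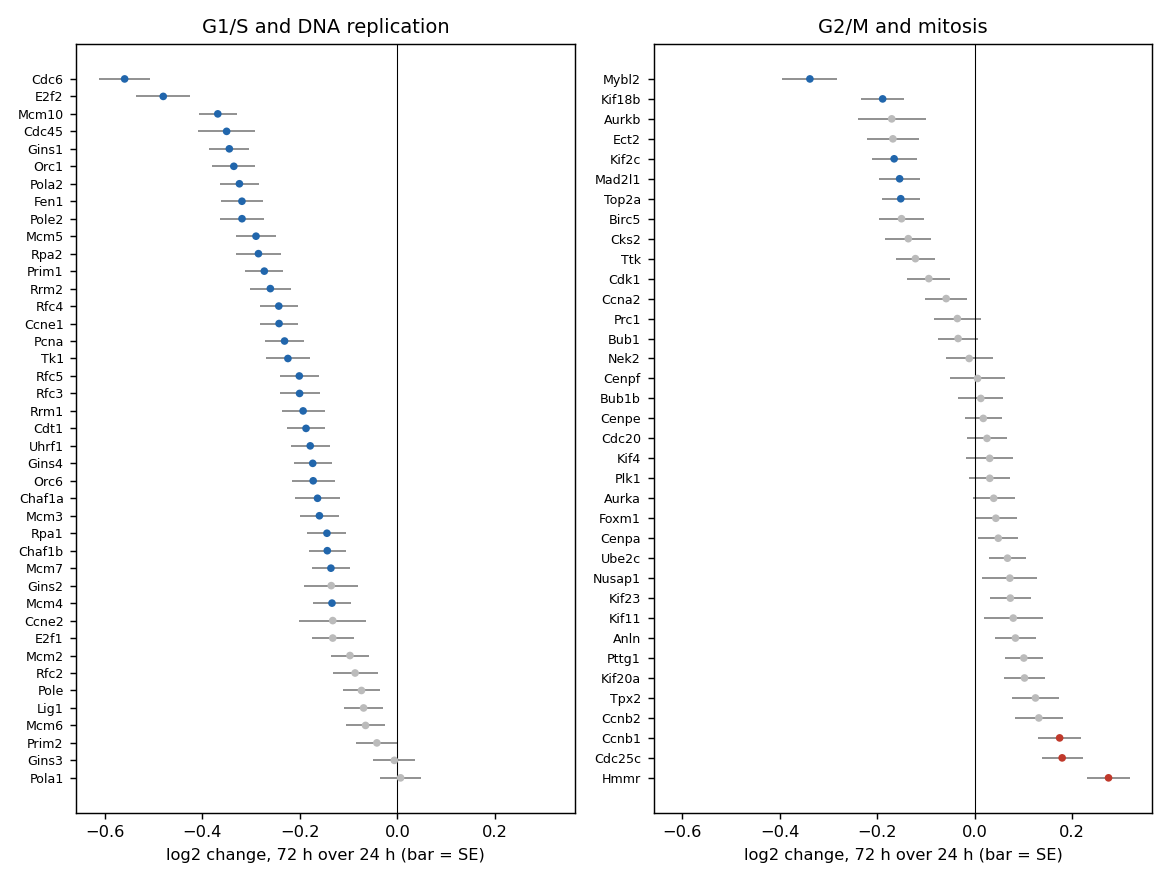
Log2 change of 72 h over 24 h (x axis, bars show the standard error) of the 41 G1/S and DNA replication genes (left) and the 36 mitotic genes (right), ordered by change. Blue marks genes called lower, red called higher and grey the rest: 30 of 41 are blue on the left, against 5 of 36 on the right.

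E2F-type letters TTTCCCGC, TTTGGCGC or TTTCGCGC were searched on both strands of the same promoter windows. Of the 41 genes 33 had a window, and 14 of them held at least 1 match (42.4%), against 2.12% of all 27025 genes. Among the called members with a window, 10 of 27 held one, which is not above the share in the whole list. The list was written from genes of the step that E2F factors switch on, so its surplus over all genes follows from that choice. A link of the matches to the change was not tested. Cdc6 (chr11:98907901-98908200, plus strand), Orc1 (chr4:108579204-108579503, plus strand) and Pole2 (chr12:69228141-69228440, minus strand) are shown by the same rule, with matches in capitals.
Cdc6: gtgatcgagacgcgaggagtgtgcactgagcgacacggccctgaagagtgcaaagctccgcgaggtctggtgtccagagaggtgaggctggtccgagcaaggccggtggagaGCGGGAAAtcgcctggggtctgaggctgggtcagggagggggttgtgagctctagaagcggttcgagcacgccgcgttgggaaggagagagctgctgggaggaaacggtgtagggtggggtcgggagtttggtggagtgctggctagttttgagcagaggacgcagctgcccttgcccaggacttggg
Orc1: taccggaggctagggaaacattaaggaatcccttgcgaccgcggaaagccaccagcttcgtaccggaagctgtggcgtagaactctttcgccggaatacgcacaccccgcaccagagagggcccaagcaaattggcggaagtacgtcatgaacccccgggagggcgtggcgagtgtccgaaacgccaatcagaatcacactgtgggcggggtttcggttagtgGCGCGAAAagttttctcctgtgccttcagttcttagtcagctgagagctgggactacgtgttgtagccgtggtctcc
Pole2: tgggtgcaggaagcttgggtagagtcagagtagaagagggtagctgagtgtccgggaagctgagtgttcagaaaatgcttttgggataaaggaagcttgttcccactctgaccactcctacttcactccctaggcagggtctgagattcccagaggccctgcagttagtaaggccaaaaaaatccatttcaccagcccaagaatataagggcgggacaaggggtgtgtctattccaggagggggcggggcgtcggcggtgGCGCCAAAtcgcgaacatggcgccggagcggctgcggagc

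Histone genes did not move as 1 group. Replicative histones are made mainly in S phase, mostly without a poly(A) tail, while the label reaction used an oligo-dT primer. Of 12 tested, 6 were lower and 3 higher. H2bc4 rose 2.14-fold from 9.47, 9.58, 9.70 and 9.54 to 10.59, 10.50, 10.82 and 10.78 (log2 1.10, SE 0.04, adjusted p = 0.000163). The linker histone H1f2 rose by 0.96. H3c1 fell by 0.43 and H4c3 by 0.26, and without array 1, 2, 3 or 4 the list had 1, 2, 3 or 2 lower. Histone genes of a class have closely similar sequences, so that probes may share signal. A list of replacement and other histones, written after values were seen, had 3 higher and 2 lower of 10, and H3f3b, which codes for a replacement H3 histone, rose by 0.41.

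Antioxidant genes under the transcription factor NRF2 were mostly lower at 72 h. NRF2 induces enzymes that make and use glutathione and NADPH. Of 26 tested, 15 were lower and 1 higher, with a median of -0.20. Gsta2, a glutathione transferase, had levels of 10.02, 10.14, 10.17 and 10.09 at 24 h and 9.23, 9.37, 9.45 and 9.37 at 72 h. It was 1.68-fold lower (log2 -0.75, SE 0.06, adjusted p = 0.000627). At 72 h it still lay above the controls, whose mean was 7.59. Gsta4 fell by 0.57, Nqo1 by 0.38, G6pdx by 0.35, Gsr by 0.35 and Srxn1 by 0.33. Slc7a11, the cystine transporter, was the member that rose, by 0.36, and Hmox1 had a change of 0.00. Median centring, which lowers bright genes, left 14 lower and 1 higher, with a median of -0.30. Glutathione transferases of a class are close paralogs.

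The letters TGACNNNGC of the antioxidant response element were found in 9 of the 21 NRF2 list members with a window (42.9%), against 13.99% of all 27025 genes. Among called members with a window the count was 6 of 14, which is not above the share in the list. Its members were listed as NRF2 targets, so the surplus over all genes follows from that choice. A link of these matches to the change was not tested. G6pdx (chrX:74428831-74429130, minus strand), Srxn1 (chr2:152105274-152105573, plus strand) and Prdx1 (chr4:116685349-116685648, plus strand) are shown by the same rule.
G6pdx: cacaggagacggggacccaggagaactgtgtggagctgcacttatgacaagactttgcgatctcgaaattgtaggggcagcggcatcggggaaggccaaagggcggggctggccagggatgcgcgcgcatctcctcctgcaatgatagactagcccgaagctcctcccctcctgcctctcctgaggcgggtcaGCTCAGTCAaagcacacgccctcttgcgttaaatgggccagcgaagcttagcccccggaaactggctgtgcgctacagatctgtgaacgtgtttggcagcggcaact
Srxn1: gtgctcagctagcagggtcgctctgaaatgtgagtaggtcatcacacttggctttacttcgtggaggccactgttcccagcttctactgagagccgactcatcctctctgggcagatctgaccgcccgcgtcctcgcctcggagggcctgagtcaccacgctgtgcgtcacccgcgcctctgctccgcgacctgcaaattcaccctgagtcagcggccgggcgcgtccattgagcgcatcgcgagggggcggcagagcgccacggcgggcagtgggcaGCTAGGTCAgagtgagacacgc
Prdx1: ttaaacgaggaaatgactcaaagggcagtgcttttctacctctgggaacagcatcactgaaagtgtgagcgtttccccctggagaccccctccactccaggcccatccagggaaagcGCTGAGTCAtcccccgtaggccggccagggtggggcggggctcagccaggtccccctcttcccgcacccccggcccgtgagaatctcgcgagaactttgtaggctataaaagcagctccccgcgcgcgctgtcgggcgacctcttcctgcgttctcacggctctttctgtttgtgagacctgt

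Immediate early genes, which respond to growth factors within minutes, had 10 lower and 2 higher of 19, with a median of -0.16. Egr1, a zinc finger factor, was at 11.73, 11.19, 11.39 and 11.77 at 24 h and 10.58, 10.17, 10.30 and 10.44 at 72 h. It was 2.21-fold lower (log2 -1.15, SE 0.15, adjusted p = 0.00309), with ratios of -1.43, -0.75, -0.81 and -1.60 on arrays 1 to 4. The samples varied more than for other leading genes, yet the groups did not overlap. Egr2 fell by 0.78, Jun by 0.70, Fosl1 by 0.65, Klf2 by 0.44 and Fos by 0.39. Jund and Ier3 rose by 0.22 each, and Fosb had a change of -0.06. Without array 1 the count was 6 lower, and median centring left 9 lower and 0 higher, with a median of -0.22. A list of feedback regulators and targets of the ERK kinase pathway, written after values were seen, had 14 lower and 3 higher of 21. It shares members with the immediate early list, Egr1, Egr2, Fosl1 and Ier3 among them, so the counts are not separate. Leaving out an array gave 10 to 12 lower for the ERK list, and median centring 11 lower and 1 higher. Dusp6, a phosphatase that ERK signalling induces, fell by 0.43, while Spry1, a feedback inhibitor, rose by 0.69 and Etv5 by 0.27.

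Signals between cells changed in both directions. Inflammatory genes had 4 higher and 6 lower of 22, or 2 higher and 6 lower with median centring. The chemokines Ccl2 and Ccl5 fell by 0.77 and 0.64 and Ptgs2, which makes prostaglandin precursors, by 0.57, while Ptx3 rose and Il6 and Vcam1 rose by 0.31 each. Interferon-stimulated and antigen presentation genes had 11 higher and 2 lower of 26. Ifi44 rose by 0.43, Isg15, a ubiquitin-like protein, by 0.40 (0.26 on its other probe), Bst2 by 0.38 and H2-D1 by 0.36, whereas Irf1 fell by 0.28 and Ifit1 by 0.17. Median centring left 4 interferon genes higher and 1 lower. TGF-beta and BMP genes had 2 higher and 9 lower of 22. The ligand Tgfb2 rose by 0.55, Fst, an antagonist of activin and BMP ligands, fell by 0.37, and Id1, a target, by 0.40. Without array 1 the TGF-beta and BMP list had 5 lower. The Wnt list was 5 higher and 6 lower of 22, with Nkd1, a pathway inhibitor, at 0.84 (0.28 on its other probe) and Lef1 at -0.39, and it had 3 higher without array 2 and 2 higher with median centring. The insulin-like growth factor system had 5 higher and 2 lower of 11. Beside Igfbp4, Pappa, the protease that cuts it, rose by 0.63 and Igf2r by 0.45, while Igfbp7, a related secreted protein, fell by 0.20 and Irs1, an adaptor of the receptors, by 0.19. Without array 1 or 4 that list had 0 lower.

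Complement genes were grouped after their values were seen, because C1s1 and C1s2 stood among the largest rises. Complement is a cascade of serum proteases that tags surfaces for clearance. Of 16 tested, 10 were higher and 1 lower. C1s1, a protease of the first component, went from 11.76, 11.30, 11.33 and 11.59 at 24 h to 12.72, 12.44, 12.57 and 12.09 at 72 h (log2 0.96, SE 0.08, adjusted p = 0.000956). All of its 72 h samples lay above those of 24 h, and its paralog C1s2 rose by 0.95 on its brightest probe, by 0.32 on its other probe and by 0.64 as the mean over both. Clu, an extracellular chaperone, rose by 0.83 and C1ra by 0.55. These pairs of C1r and C1s genes are near copies. Cd55, a membrane inhibitor, fell by 0.32. Semaphorins and plexins, also grouped afterwards, had 10 higher and 2 lower of 27, with Sema3a at 0.66 (0.36 on its other probe), Sema6a at 0.54 and Sema3b at 0.52, and 6 higher with median centring. Notch pathway genes, grouped in the same way, had 5 higher and 0 lower of 12, 3 higher without array 2 or 1 higher with median centring, and Jag1, a ligand, rose by 0.31.

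Amino acid transporters had 11 higher and 4 lower of 19, with a median of 0.21. Slc7a3, a cationic amino acid carrier, was at 10.52, 10.74, 10.65 and 10.63 at 24 h and 11.28, 11.28, 11.26 and 11.28 at 72 h (log2 0.64, SE 0.05, adjusted p = 0.000611). Slc7a5, of the large neutral carrier, rose by 0.54 on its brightest probe, but its other probe gave 0.10 with an adjusted p of 0.36, so its rise rests on 1 probe. Its partner chain Slc3a2 rose by 0.25, while Slc43a1 and Slc1a3 fell by 0.41 and 0.39. Without array 1 the transporters had 7 higher, and with median centring 4. Targets of the integrated stress response were mixed, with 13 higher and 5 lower of 32. The transcription factors Atf4 and Ddit3 had changes of -0.05 and 0.04 that did not pass the test. Vldlr rose by 0.57, and Ndrg1 by 0.49, while Gdf15, a secreted stress signal, fell by 0.48 and Fgf21, another, by 0.19. Without array 1 the stress response targets had 6 higher and without array 3 they had 8, while median centring left 4 higher and 3 lower. Without array 1 those targets had 1 lower, and without array 2 they had 2.

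Circadian clock genes had 8 higher and 2 lower of 15. Cry2, a repressor of the clock, had 11.80 as its lowest and a mean of 11.91 over the 24 h samples, and 12.42, 12.34, 12.33 and 12.35 at 72 h, a rise of 0.45 (SE 0.05, adjusted p = 0.00153). Per2 rose by 0.37, Per1 by 0.29 and Dbp by 0.31, while Clock fell by 0.19 and Cry1 by 0.18. Without array 1, 2 or 3 the clock list had 4, 5 or 5 higher, and with median centring 3. The labels do not state the hour of day of each harvest.

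Among p53 targets 5 were higher and 6 lower of 26. Gadd45a, a growth arrest gene, rose by 0.62 and Perp by 0.44, while Mdm2 fell by 0.36 and Cdkn1a, the cell cycle inhibitor p21, by 0.35. That list had 2 higher without array 1 or 2 and with median centring. Among apoptosis regulators 3 were higher and 3 lower of 23, with Bmf at 0.59 and Apaf1 at -0.29, and 1 was higher and 1 or 2 lower without any 1 of the arrays. Autophagy genes had 3 higher and 3 lower of 27, and Bnip3 had the largest change of them. Without array 1, 2 or 4 the autophagy list had 1 higher and 0 lower.

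Of the mitochondrial formyl-methionine pathway 4 genes were tested and 0 called, against 25.6% of all tested. Pdf, the peptide deformylase that actinonin inhibits, was at 11.02, 11.06, 11.02 and 10.91 at 24 h and 10.88, 10.83, 10.95 and 10.87 at 72 h, groups that overlapped (log2 -0.12, SE 0.04, adjusted p = 0.0783). Of 37 genes for complex I, 2 were higher and 1 lower, and of 41 for complexes II to V, 2 were higher and 6 lower. Leaving out 1 array at a time gave 1 or 2 lower for complexes II to V. Mitochondrial ribosomal proteins had 14 lower and 1 higher of 75, with a median of -0.06. Their share of 14 in 75 is near the 15.3% of named genes that were lower, while the 1 higher is below the 14.6% that were higher. A change below 0, mostly not called, was seen in 64 of the 75. Mrps6, a protein of the small subunit, fell by 0.54, from 15.53, 15.38, 15.29 and 15.30 to 14.81, 14.93, 14.80 and 14.80 (adjusted p = 0.000875). Without array 1, 2, 3 or 4 the mitochondrial ribosomal list had 4, 5, 5 or 8 lower. Among mitochondrial chaperones and proteases 3 were higher and 3 lower of 24, with Lonp1, a matrix protease, at 0.28 and Hspa9 at 0.20. Without array 1, 2 or 3 that list had 0 lower, and without array 1 it had 1 higher. In the list of the citric acid cycle and pyruvate enzymes 4 of 25 were higher and 0 lower, and this share is near the 14.6% of named genes. They were Pdk1, Pdp1, Pcx and Pdhx, and for Pdp1 the 2 other probes, at 0.13 and 0.05 against 0.32, were not called (adjusted p = 0.126 and 0.506). Cytosolic ribosomal proteins had 1 higher and 1 lower of 77.

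Of 25 cholesterol synthesis genes 7 were lower and 1 higher, with a median of -0.10 and 21 of 25 below 0. Idi1 fell by 0.31 and Tm7sf2 rose by 0.40. Without any 1 of the arrays the cholesterol list had 2 or 3 lower. Proteasome genes had 8 lower and 1 higher of 34, with Psmd11 at -0.28 and 32 of 34 below 0. The proteasome list had 1 lower without array 1, 2 or 3 and 3 without array 4. Lysosomal genes had 8 higher and 0 lower of 28, with Psap at 0.30. The count was 1 without array 1, 4 without array 2 or 3 and 0 with median centring. Mitochondrial tRNA synthetases and expression factors had 3 higher and 7 lower of 37, ribosome biogenesis genes 2 and 7 of 32, mitochondrial solute carriers 2 and 4 of 33 and serine, one-carbon and proline synthesis 2 and 4 of 20. Leaving out 1 array at a time gave 2 to 4 lower for the mitochondrial tRNA synthetases, 1 to 4 for ribosome biogenesis, 1 to 3 for the solute carriers and 1 to 3 for serine synthesis. Ribosome biogenesis had 1 lower without array 1, 2 or 3, and the solute carriers had 1 lower without array 1. Cytosolic tRNA synthetases had 2 higher and 0 lower of 20, fatty acid synthesis 1 and 0 of 16 and RNA polymerase II elongation control 0 and 3 of 13. Genes linked to cell cycle arrest and senescence had 3 higher and 5 lower of 14, the last including Timp1 and Cdkn1a, and leaving out an array gave 1 to 4 higher and 3 or 4 lower. The elongation list had 1 lower without array 1.

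Markers of other cell types were called in 4 of the 7 lists. Of leukocyte markers 1 was higher and 1 lower of 4 tested, of neural markers 2 were higher of 4, of adipocyte markers 2 were lower of 2, and of cartilage and bone markers 2 were lower of 5. Without array 1, 2 or 3 the neural list had 1 higher, and with median centring 0. Without array 1, 2, 3 or 4 the cartilage and bone list had 0, 1, 2 or 1 lower, and with median centring 1. Median centring left 0 higher and 1 lower of the leukocyte markers. Cd14, a receptor of myeloid cells, fell by 0.64, whereas Lyz2, another myeloid gene, rose by 0.24, and the summed intensity of the 9 leukocyte markers was 33817 to 35516 at 24 h and 34865 to 38495 at 72 h. Of the adipocyte markers that could be tested, Pparg fell by 0.40. Fabp4 was not well above background in any 72 h sample and was at least 1.21-fold lower. It met the filter on dim probes only through its 24 h samples, which set its direction. Of the 2 calls, only that of Pparg is thus free of the filter. The sum over 6 adipocyte markers was 2298 to 2502 at 24 h and 1785 to 2017 at 72 h. Map2 and Tubb3, of the neural list, rose by 0.22 and 0.18. Of the cartilage and bone markers Sp7 fell by 0.25 and Sox9 by 0.20, and the sum over the 5 was 1581 to 1737 at 24 h and 1416 to 1572 at 72 h. Fibroblast markers themselves had 4 higher and 2 lower of 10, with Thy1 at 0.25, S100a4 at -0.42 and Pdgfra at -0.39. Their part in the results above was not tested.

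A few called genes were well above background at only 1 of the times. With no sample well above background at 72 h and all 4 above it at 24 h, 8 named genes were called, and with the reverse pattern 3. They met the filter on dim probes only through the 4 samples of the time at which they were higher, which set their direction. The calls and the counts of 8 and 3 thus describe what the filter let in and give no test of direction for these genes. For these, Fabp4 above included, the fold is a lower bound, the bright group's mean over the dim group's, where each dim sample counts at its own value or at the dimmest probe that stood well above background there, whichever is higher. Sh2d1b1, an adaptor of natural killer cells, was at least 1.44-fold lower at 72 h. Agtr2, an angiotensin receptor, was at least 1.27-fold lower and Cdh18, a cadherin, at least 1.25-fold lower. In the other direction, Sbk3 was at least 1.39-fold higher, 1700123K08Rik at least 1.29-fold higher and Ifnlr1, the interferon lambda receptor, at least 1.20-fold higher. These bounds are small because such genes lie near the floor at both times. Among 326 long noncoding RNAs tested, 43 were higher and 40 lower, which is near the 13.4% higher and 12.1% lower of all tested. Of the 8969 transcripts without a symbol 1041 were higher and 653 lower, both below those shares.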

How the data were processed

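Total RNA was primed with oligo-dT, amplified and dyed, per the labels, and read on Agilent arrays. The deposited intensity values are median spot and local background signals, not normalized. Agilent's deposited log10 ratio and the authors' series matrix of log2 intensity served as alternatives. Its columns matched the log2 signal of their own channel (correlations 0.999 to 1.00) and had medians of 7.00 to 7.01. Of tools, the submitters' processing notes list R 2.15 and limma, without steps.

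Background was corrected by normexp (offset 50) and each array was normalized by loess, in which control spots and outlying spots had weight 0; levels were scaled between arrays by Aquantile (R 4.3.3, limma 3.58.1). Probes entered where at least 4 of the 8 samples were well above background and 3 arrays gave a ratio. The brightest probe stood for its gene. Of 55681 probes, 27235 were named through RefSeq genes of GRCm38.p6. The log ratios of the 4 arrays were fitted in limma with terms for change and dye (2 residual and 4.88 prior degrees of freedom), two-sided, with Benjamini-Hochberg adjustment over all 22850 genes tested.

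The named genes are drawn from the 20 largest rises and falls that were called, well above background in at least 3 samples of each time and of 1 sign on all arrays, bounded genes, and in each list up to 4 called members and the first 3. Some items are not reported here. Some further list members were named after their values were seen. The members and lists were chosen with earlier results of these data known. The fit was checked on simulated data.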

Additional observations from a re-analysis of the deposited data

Results flagged for a closer look

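In 82 groups of 4 samples, which were the 2 times for each of the 40 leading genes and for the share of spots above background, 3 had a sample that stood apart from the other 3 by Dixon's criterion; chance gives about 1 in 20 such groups. B4galnt2 was at 8.60 in the second Cy3 sample of 24 h, against 8.54 in the others. Ret was at 8.60 in the first Cy5 sample of 24 h, against 8.45 to 8.47. Rgs17 was at 10.16 in the second Cy3 sample of 72 h, against 10.27 to 10.28. Each gap is small beside the change of that gene between the times.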

How the results depend on the processing

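All 40 leading genes kept their direction and their call under each of the 18 alternatives run. The number of genes called, 5847, stayed within 1.5 times under 12 alternatives. It was 2651 (709 higher, 1942 lower) with median centring, where the variance estimate also differed. It was 2644 (1458 higher, 1186 lower) with no filter on dim probes, over 37074 transcripts, and 1766 (952 higher, 814 lower) with no dye term. Agilent's processed log ratio gave 2035 higher. Leaving out each array in turn gave 2659 to 4534 called, 1405 to 2381 higher and 1254 to 2153 lower. Calls that both analyses made had opposite signs for 1 gene with Agilent's ratio and 1 with the mean over probes. The change of Ccnb1 turned to -0.065 with the mean over its probes. Agilent's ratio, which adds no offset, gave larger changes for dim genes, such as -2.16 for Lce1g, and the mean over probes gave 0.62 for Tenm4 and -0.46 for Rasgrf1. A replicate block from the titles' number and dye gave 4452 calls. Samples of the same number and dye lay on different arrays and deviated together at correlations of 0.06 (Cy3) and -0.01 (Cy5). Samples on the same array, which also shared the title number, did so at 0.46 and 0.30. A shared number and a shared array thus cannot be told apart there. With 4 arrays, changes under about 0.13 were not called, and normalization would hide a change common to all genes.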
